A study of Mus musculus with 15 samples.

Results

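The nuclear genes of the mitochondrial respiratory chain and ATP synthase were followed across 5 mouse epithelia. They were chosen by name, as the protein-coding genes whose symbol begins with Nduf, Uqcr, Cox4, Cox5, Cox6, Cox7, Cox8 or Atp5, together with Sdha, Sdhb, Sdhc, Sdhd and Cyc1. The rule found 94 of the 50600 genes in the tables. They are 36 genes of complex I and 8 that begin with Ndufaf, which encode assembly factors of complex I, 4 genes of complex II, 9 of complex III, 11 common genes of complex IV and 8 tissue-restricted isoforms, and 16 genes of complex V. Cox7a2l, which encodes a factor that joins complexes III and IV, and Atp5s, listed as associated with complex V and not among its 16 genes, complete the set. A further 11 symbols of the same form were not protein-coding and were left out.

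The series measured polyadenylated RNA of freshly isolated epithelium, sorted by FACS from C57BL/6J mice that were male and 8 weeks old. It asked about differences in MHC I between epithelia. Cortical epithelium of the thymus (cTEC), its medullary counterpart (mTEC), skin epithelium, colon epithelium and lung epithelium formed the 5 groups. Every group had 3 libraries, each from the pooled cells of 5 mice, so that n = 3 pools and an SD is the spread among pools. Libraries of the thymic groups and of skin came from the KAPA RNA Stranded PolyA kit, whereas the KAPA RNA HyperPrep PolyA kit was used for colon and lung. Tissue and kit therefore cannot be told apart where colon or lung is set beside the other groups. The comparisons of colon with lung, of thymic epithelium with skin, and of mTEC with cTEC each lie within a single kit.

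The libraries held 12946533 to 41978665 reads in genes. Skin replicate 1 stood apart: 46.9% of its reads lay in no single gene, and the repeat-derived transcript Gm42418 took 14.8% of its gene reads. Its sense reads were 8.43 times the reads of the opposite strand, the lowest ratio of the 15 libraries. The summed markers of each sorted epithelium were highest in its own libraries for cortical thymus, skin, colon and lung. The 7 medullary markers include Krt5 and Krt14 and were highest in skin, and among the thymic groups they stood at 6707 to 8701 CPM in mTEC and 2195 to 4285 CPM in cTEC. CPM is the count scaled to library size by TMM, which adjusts libraries for differences in composition. Of the 94 genes, 92 passed the filter on low counts, and Cox7b2 and Cox8c, with 2 and 3 reads over all libraries, did not.

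Complexes I and II take electrons from NADH and succinate, complex III passes them through cytochrome c to complex IV, and complex IV reduces oxygen. Complexes I, III and IV pump protons across the inner mitochondrial membrane, and complex V, the ATP synthase, uses that gradient to make ATP. Most subunits are encoded in the nucleus and a few, at the core of complexes I, III, IV and V, in mitochondrial DNA. Several small subunits of complex IV have alternative isoforms that are known from heart, skeletal muscle, lung or testis, and Ndufa4l2, a relative of the complex IV subunit Ndufa4, is known as a hypoxia-induced gene.

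Colon epithelium had the highest CPM of most of these genes and lung epithelium the lowest. By group mean CPM, colon was the highest group for 64 of the 92 genes, skin for 14, cTEC for 9, lung for 5 and mTEC for 0. Lung was the lowest group for 49 genes and mTEC for 25. All 3 colon libraries lay above the other 12 for 36 of the 92 genes, where 15.3% of all 19107 genes tested had that pattern. All 3 lung libraries lay below the other 12 for 21 of the 92, against 7.87% of all genes tested. The thymic groups and skin rarely stood at an extreme: cTEC lay above all others for 2 genes, Ndufa11 and Ndufaf8, against 5.74% of all genes, and mTEC for 0 against 8.95%. The mTEC libraries lay below all others for 3, Ndufa8, Ndufab1 and Ndufv3, against 1.98%. Skin lay above for 4, Atp5g1, Cox7c, Ndufa4l2 and Ndufb2, against 7.85%, and below for 1, Ndufc2, against 9.17%. Lung lay above for 3, Cox4i2, Cox6a2 and Ndufc2, against 15.9%, and colon below for 1, Ndufaf3, against 9.95%. No gene had all cTEC libraries below the rest, where 2.58% of all genes did. In the test among the 5 groups, 88 of the 92 genes differed, close to the 90.6% of all genes tested that did. The 4 that did not pass were Ndufb3, Ndufs5, Atp5l and Cox6b2. The ratio of the highest to the lowest group mean had a median of 2.42 over the 92 genes, with quartiles of 1.98 and 3.15. It was over 10 for 8 of them, namely the isoforms Ndufa4l2, Cox7a1, Cox6a2, Cox4i2 and Cox8b, and Atp5g1, Atp5g2 and Cox7c. These counts hold only reads placed at a single site. For Atp5g1, Atp5g2, Cox7c and Ndufb2 they came to less than 70% of the estimate that also divides shared reads. For Atp5g1 and Cox7c that share was lower in colon and lung than in the other groups, as given below, which limits their ratios and ranks.

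**Figure D1:**
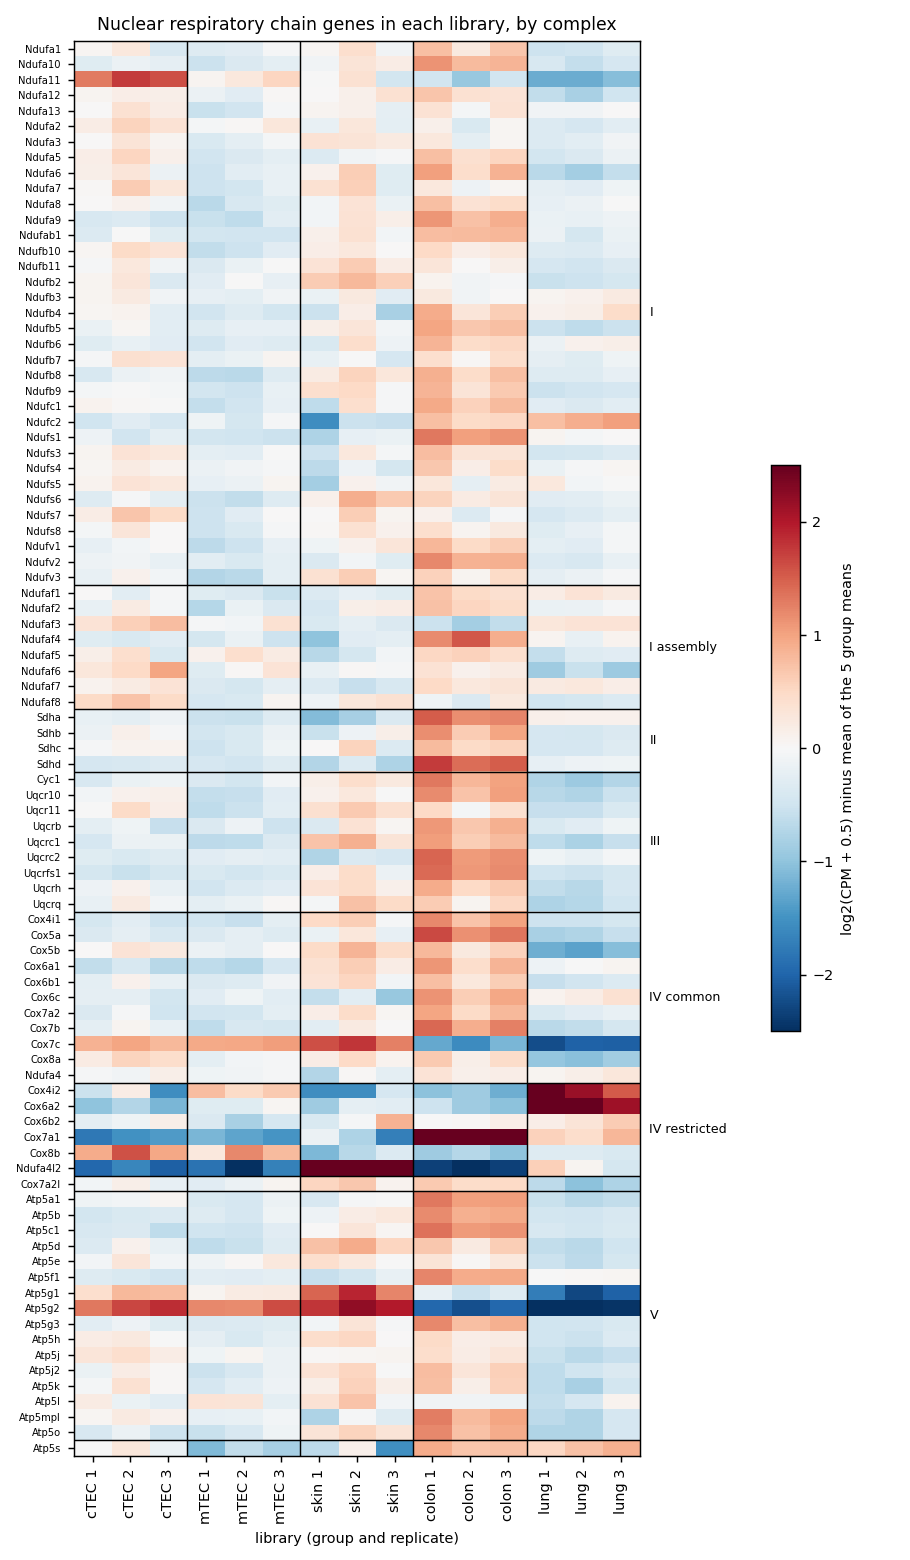
Level of 91 of the 92 tested genes (rows, by complex) in each of the 15 libraries (columns), as log2(CPM + 0.5) minus the mean of the 5 group means, with colours ending at -2.5 and 2.5. The colon columns are red in most rows of every complex, Ndufa4l2 stands out in skin, Cox7a1 in colon, Cox4i2 and Cox6a2 in lung, and Ndufa11 in cTEC.

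Per transcript length, the 94 genes together made up 24930 ± 2887 TPM (the share of transcripts, adjusted for length; SD, n = 3) in colon and 20819 ± 1559 in cTEC. They made up 18003 ± 1983 TPM in skin, 17956 ± 1650 in mTEC and 13718 ± 655 in lung. The lowest colon library, at 22467 TPM, was just below the highest cTEC library, at 22548, and the lung libraries lay below all others, at 12973 to 14202 TPM. The most abundant gene of each complex, by the mean of the group TPM, was Ndufa3 of complex I, Sdhc of complex II, Uqcrh of complex III, Cox6b1 of complex IV and Atp5b of complex V. Atp5b, the catalytic beta subunit of ATP synthase, stood at 1469 ± 115 TPM in colon and 628 ± 25.4 in lung, with cTEC, mTEC and skin between 1046 and 1109. Complex I summed to 6019 ± 517 TPM in cTEC and 5765 ± 636 in colon, and its assembly factors to 239 ± 34.3 and 151 ± 3.50. Complex I took 29.2% ± 0.0355 of the summed TPM in lung, 28.9% ± 0.590 in cTEC and 23.1% ± 0.126 in colon. Complex V took 31.3% ± 0.823 in colon and 27.5% ± 0.194 in lung.

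The comparison of colon with lung asked how the chain differs between these epithelia within the HyperPrep kit. Genes of all 5 complexes were higher in colon: 71 of the 92 tested were called higher and 4 lower, where 28.3% of all genes tested were called higher and 30.4% lower. Their median log2 fold change was 1.01, and that of all genes tested was -0.0040. Complex II was higher in all 4 genes, complex III in all 9, the common genes of complex IV in 10 of 11, complex V in 15 of 16 and complex I in 27 of 36. Of the 8 assembly factors 4 were higher and 1, Ndufaf3, was lower.

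Cox5a, a nuclear subunit of complex IV, stood at 329.5, 229.8 and 265.7 CPM in colon replicates 1 to 3 and at 59.4, 62.0 and 69.8 CPM in lung. The colon libraries lay far above those of lung without overlap, a 4.31-fold difference (log2 fold change 2.11 ± 0.16 SE, adjusted p = 4.90e-08, edgeR quasi-likelihood F-test). Cyc1, the cytochrome c1 of complex III, stood at 275, 196 and 223 CPM in colon and at 65.2, 58.3 and 66.1 in lung. Its log2 fold change was 1.87 ± 0.16 (adjusted p = 1.33e-07), and Cox7b, a small subunit of complex IV, followed at 1.80 ± 0.17 (adjusted p = 3.46e-07).

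In complex II, Sdhd, a membrane anchor of succinate dehydrogenase, stood at 292.6, 230.4 and 251 CPM in colon and 75.04, 79.9 and 81.3 CPM in lung. Its log2 fold change was 1.71 ± 0.14, and Sdha, the flavoprotein of the same enzyme, was higher by 1.2 ± 0.17. Among the core subunits of complex I, 6 of 7 were higher in colon, with Ndufv2, an iron-sulfur subunit, at 1.31 ± 0.13. Ndufaf3, an assembly factor of complex I, went the other way, at 12.2, 9.77 and 11.6 CPM in colon against 22.1, 23.1 and 22.9 CPM in lung. The libraries did not overlap, and the log2 fold change was -1.02 ± 0.18 (adjusted p = 0.000167).

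Genes around the chain were also compared between colon and lung, where 28.3% of all genes tested were higher in colon and 30.4% lower. Of 13 genes of the TCA cycle, which feeds the chain with NADH and succinate, 12 were higher in colon, among them Suclg2, the GDP-specific succinyl-CoA ligase subunit, with a log2 fold change of 3.27 ± 0.19, and Suclg1 with 1.87 ± 0.15. Of 14 regulators of mitochondrial biogenesis 8 were higher and none lower. The coactivator Ppargc1b stood at 33.6, 28.03 and 38.2 CPM in colon and 0.953, 0.463 and 0.309 CPM in lung, a log2 fold change of 5.84 ± 0.38. Esrra, the nuclear receptor it works with, was higher by 1.80 ± 0.21. Cycs, the mobile cytochrome c, was higher by 0.83 ± 0.18. Of 22 assembly factors of complexes II, III and IV, 5 were higher, a smaller share than the 28.3% of all genes tested. Among the 5 were Sco1 at 1.53 ± 0.16 and Cox10 at 1.12 ± 0.16. Of 15 glycolytic genes 8 were higher, among them Tpi1 at 1.35 ± 0.13 and Gpi1 at 1.33 ± 0.15, and Ldhb, a lactate dehydrogenase subunit, was lower by a log2 fold change of -4.28 ± 0.17. The cytosolic ribosomal protein genes moved in the same direction, with 78 of 90 higher in colon and 4 lower. Summed myeloid markers stood at 1766 to 3299 CPM in lung and 7.23 to 9.99 CPM in colon, with all 6 markers detected in both. In colon minus lung 5 of the 6 were lower and 1 was higher. In lung minus thymic 2 were higher, 1 was lower and 3 did not pass. The part of myeloid cells in these differences was not tested. In sorted bulk samples fewer cells of a type and less RNA per cell cannot be told apart.

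**Figure D2:**
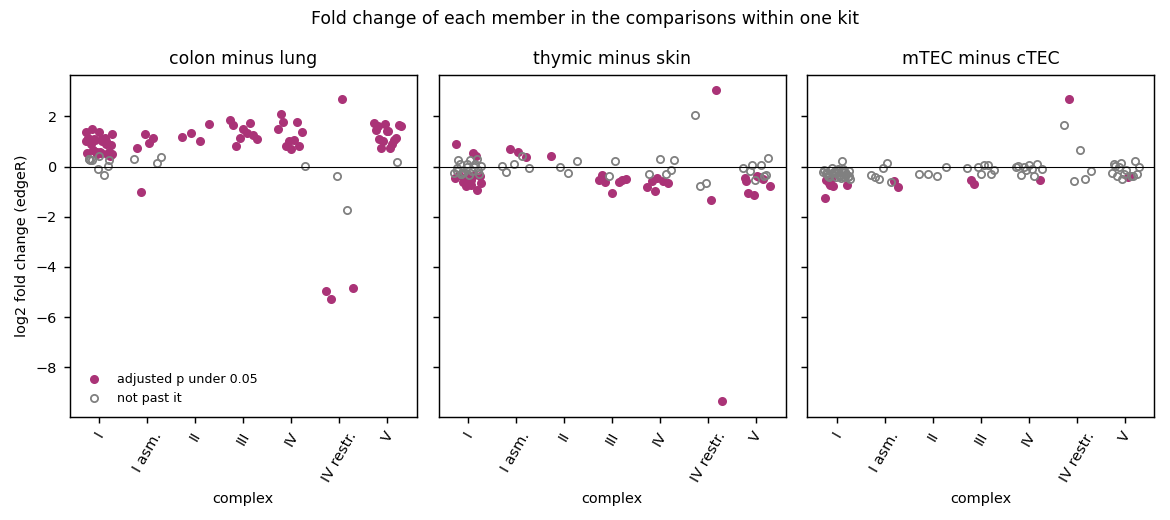
Log2 fold change (vertical axis, edgeR) of each gene, by complex, in the 3 comparisons within a single kit, with filled points past an adjusted p of 0.05 and open points not. Cox7a2l and Atp5s are not drawn. Most points lie above 0 for colon minus lung, where the median is 1.01, and below 0 for the others, where the medians are -0.30 and -0.28.

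The tissue-restricted isoforms followed other patterns than the common subunits. Ndufa4l2 marked skin. It stood at 336, 309.9 and 182 CPM in the skin libraries, at 0.112 to 0.613 CPM in the 6 thymic libraries, at 0.179, 0 and 0.178 in colon and at 4.64, 3.10 and 2.04 in lung. No library of another group came near those of skin, and thymic epithelium was 656-fold lower (log2 fold change -9.36 ± 0.38, adjusted p = 2.07e-10), with -9.20 when skin replicate 1 was left out. Ndufa4, the common subunit, did not pass in that comparison, with a log2 fold change of 0.25 ± 0.14 (adjusted p = 0.126). Ndufa4l2 thus made up 74.8%, 64.0% and 55.5% of the TPM of both genes in skin, 1.96% ± 0.894 in lung, and 0.0777% to 0.247% by group mean in cTEC, mTEC and colon. In lung it was higher than in thymic epithelium by 2.96 ± 0.39 and than in colon by 4.84 ± 0.59 on the log2 scale.

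Ndufa4l2 is also known from pericytes, and the markers of other cell types are given beside it. The 9 markers of pericytes and smooth muscle summed to 259 to 345 CPM in skin, 1250 to 1323 CPM in mTEC and 291 to 386 CPM in cTEC. All 9 were detected in each of these groups, and in thymic minus skin 4 were higher and 5 lower. The pericyte gene Rgs5 stood at 39.4, 16.5 and 10.9 CPM in skin and 439.7 to 537 CPM in mTEC, and Ndufa4l2 stood at 0.112 to 0.564 CPM in those mTEC libraries. The 7 fibroblast markers summed to 3972, 1262 and 7621 CPM in skin replicates 1 to 3 and 119 to 507 CPM in the thymic libraries. The library with the lowest fibroblast sum, skin replicate 2, had 309.9 CPM of Ndufa4l2. Rgs5 and the endothelial sum were highest in skin replicate 1 and lowest in replicate 3, as Ndufa4l2 was. The part of pericytes, endothelium and fibroblasts in the difference was not tested.

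Cox7a1, the isoform of the complex IV subunit 7a known from heart and skeletal muscle, marked colon. It stood at 22.1, 15.6 and 20.1 CPM in colon, 2.83, 2.52 and 3.47 in lung, 0.182 to 1.51 in skin and 0.143 to 0.503 in the thymic libraries. The groups of colon and of lung overlapped with no other, and colon was 6.55-fold above lung (log2 fold change 2.71 ± 0.46, adjusted p = 0.000139). Its share of the TPM of Cox7a1 and Cox7a2, the common form, was 15.2% ± 0.225 in colon, 5.84% ± 0.523 in lung, and between 0.494% and 1.18% in the other group means. Thymic epithelium was lower than skin by -1.31 ± 0.50 (adjusted p = 0.0333), but without skin replicate 1 the log2 fold change was -0.53 and no longer passed. Leaving out skin replicate 2, cTEC replicate 1, or mTEC replicate 2 or 3 also ended that call, at -1.14 to -1.29. The 8 striated muscle markers summed to 464 to 478 CPM in colon and 3.22 to 3.91 CPM in lung. Acta1, a skeletal actin, made up 462 to 476 CPM of that sum, while the muscle creatine kinase Ckm stood at 0 to 0.0448 CPM in colon and Myh1, Myh4 and Myh6 had no read there.

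Cox4i2 and Cox6a2 were highest in lung. Cox4i2, the isoform of subunit 4 known from lung, stood at 11.2, 6.10 and 3.78 CPM in lung, 1.56 to 2.01 in mTEC, 0 to 1.17 in cTEC, 0 to 0.607 in skin and 0.134 to 0.300 in colon. The lung libraries lay above all others, and colon minus lung was -4.94 ± 1.02 (adjusted p = 0.000717). Cox6a2, a heart and muscle isoform of subunit 6a, stood at 6.18, 5.87 and 4.33 CPM in lung and at most at 0.651 CPM in any other library. Its colon minus lung value was -5.27 ± 0.71 (adjusted p = 1.64e-05). Both stayed minor beside their common partners in lung, with 2.96% ± 1.73 of the TPM of Cox4i2 and Cox4i1 and 2.63% ± 0.626 of Cox6a2 and Cox6a1. Lung replicate 1 was highest for both genes and also had the highest sum of myeloid markers, 3299 CPM, and of pericyte and smooth muscle markers, 185 CPM. In lung replicate 3, the lowest for both genes, these sums were 1766 and 84.9 CPM. The 7 lung epithelium markers fell in the same order, at 21143, 10772 and 9718 CPM in replicates 1 to 3. The endothelial sums, at 73.3, 164 and 155 CPM, and the fibroblast sums, at 928, 1232 and 1190 CPM, were lowest in replicate 1. In lung minus thymic 2 of the 6 myeloid markers were higher and 1 was lower. Of the 9 pericyte and smooth muscle markers 3 were higher and 4 lower. The part of any of these cells in the lung level was not tested.

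Cox8b, the isoform of subunit 8 known from heart and muscle, was highest in the thymus. It stood at 1.57, 2.79 and 1.62 CPM in cTEC, 0.804, 2.01 and 1.39 in mTEC, 0, 0.177 and 0.364 in skin, 0.0446 to 0.167 in colon and 0.340 to 0.376 in lung. The thymic libraries lay above all others, by 3.05 ± 0.68 on the log2 scale over skin (adjusted p = 0.00137) and by 2.55 without skin replicate 1. It made up 1.21% ± 0.373 of the TPM of Cox8b and Cox8a in cTEC and 1.19% ± 0.470 in mTEC. The striated muscle markers summed to 19.7 to 32.1 CPM in the thymic libraries, 17.8 to 84.8 in skin, 464 to 478 in colon and 3.22 to 3.91 in lung. The brown adipocyte markers summed to 18.9 to 188 CPM in the thymic libraries, 51.1 to 243 in skin, with no read of Ucp1, and at most 4.55 in colon and lung. The colon muscle sum was mostly Acta1, as given above. Against thymic epithelium 7 of the 8 muscle markers were lower and 1 higher in colon, and 5 were lower and 0 higher in lung. Of the 4 brown adipocyte markers, 4 were lower in colon and 3 in lung. In thymic minus skin 2 muscle markers were higher and 4 lower, and 1 brown adipocyte marker was higher and 1 lower. The part of these cells in the Cox8b level was not tested. Cox6b2, a testis isoform of subunit 6b, made up 0.929% to 2.34% of its pair by group mean and did not pass the test among the 5 groups, although lung minus thymic stood at 0.80 ± 0.32 (adjusted p = 0.0413), a call that leaving out any of 11 libraries ended, at 0.65 to 0.92. Cox7b2 and Cox8c, both known from testis, had 2 and 3 reads in all, and the 5 germ cell markers summed to at most 2.5 CPM in any library.

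**Figure D3:**
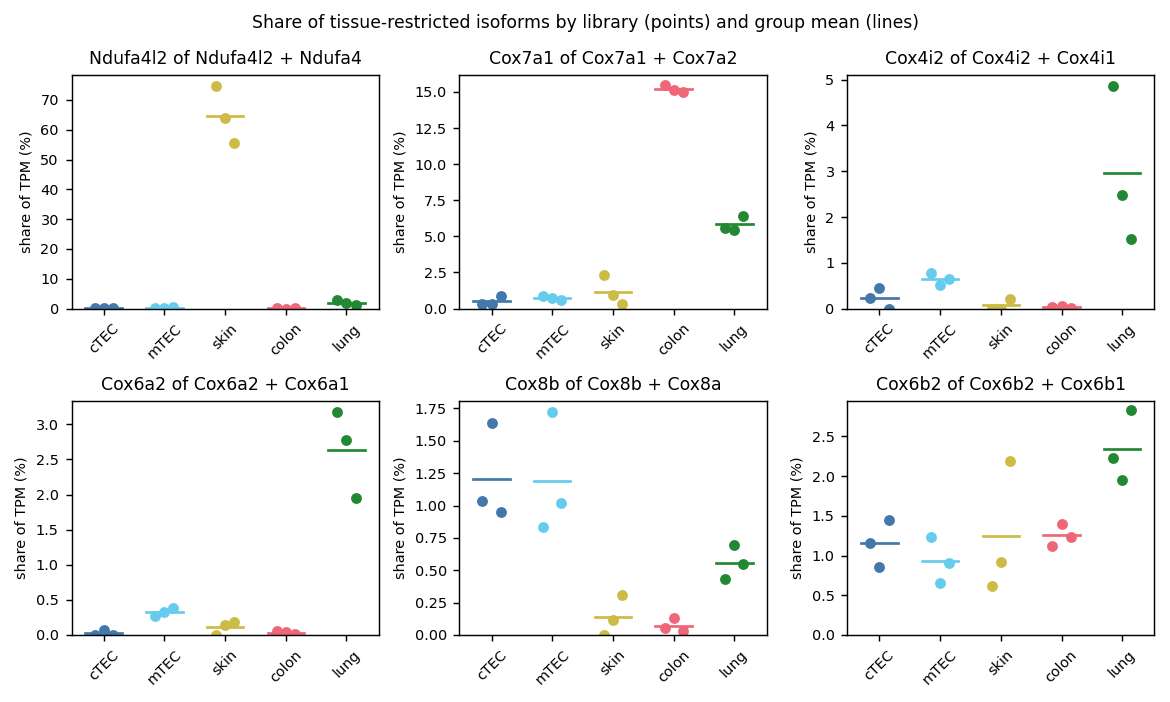
Share of each isoform in the TPM of isoform and common partner (vertical axis, percent, from 0) in each library (points) with group means (lines). Ndufa4l2 reaches 55.5% to 74.8% in skin, Cox7a1 15.2% in colon by mean, and Cox4i2 and Cox6a2 under 5% in lung.

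Thymic epithelium, taken as the mean of cTEC and mTEC on the log2 scale, was compared with skin within the Stranded kit. Of the 92 genes 37 were lower in thymic epithelium and 8 higher, where 25.6% of all genes tested were lower and 35.6% higher. The median log2 fold change was -0.30, and that of all genes tested 0.21. Lower genes came from complex III with 7 of 9, complex IV with 6 of its 11 common genes, complex V with 8 of 16 and complex I with 13 of 36. In complex II Sdha was higher and none was lower. Of the assembly factors of complex I, 3 of 8 were higher and none was lower.

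Uqcrc1, a core protein of complex III, stood at 142 to 170.5 CPM in cTEC and 120.1 to 147 in mTEC, against 313, 353 and 238 CPM in skin. The groups did not overlap, and the log2 fold change was -1.06 ± 0.14 (adjusted p = 1.45e-05). Atp5d, a stalk subunit of ATP synthase, followed with -1.05 ± 0.14 and Atp5g1, one of the genes of its c subunit, with -1.14 ± 0.16. Among the common genes of complex IV the largest fall was that of Cox6a1, at -0.98 ± 0.14.

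Higher in thymic epithelium were Ndufa11, an accessory subunit of complex I, with 0.92 ± 0.19 (adjusted p = 0.000685), Ndufaf3 with 0.69 ± 0.16, Ndufc2 with 0.52 ± 0.19 and Ndufs4 with 0.41 ± 0.14. Without skin replicate 1, Ndufa11 stood at 0.91 and Ndufaf3 at 0.65, while Ndufc2 at 0.26 and Ndufs4 at 0.29 did not pass. Leaving that library out gave 4 higher and 39 lower genes, and leaving out skin replicate 2 gave 11 and 26. Ribosomal protein genes fell alongside, with 84 of 90 lower in thymic epithelium. The summed TPM gave another order than CPM, with cTEC at 20819, skin at 18003 and mTEC at 17956, and skin replicate 1 was the lowest of these 9 libraries at 15719. The fibroblast markers differed between the groups as given above, and their part in these values was not tested.

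Around the chain, thymic epithelium had less Cs, citrate synthase, with -1.32 ± 0.12, and less Mdh2 with -0.39 ± 0.11, but more Suclg1 with 0.77 ± 0.13. These were among 3 lower and 1 higher of 13 TCA cycle genes. Over all genes tested 25.6% were lower and 35.6% higher, the shares to set beside this and the next counts. Of 14 biogenesis regulators, 5 were lower, among them the coactivator Pprc1 with -1.96 ± 0.18 and Polg, the mitochondrial DNA polymerase, with -0.83 ± 0.10. The 4 higher ones included Tfam, which packs mitochondrial DNA, with 1.15 ± 0.14, and Polg2 with 1.39 ± 0.23. Of 15 glycolytic genes 8 were lower, among them Pfkp with -1.89 ± 0.15 and Tpi1 with -1.05 ± 0.11, and Ldhb was higher with 2.48 ± 0.15. Cycs was lower, with -0.96 ± 0.15. Of 22 assembly factors of complexes II to IV, 9 were higher, among them Sdhaf4 with 1.31 ± 0.22 and Cox20 with 1.06 ± 0.19, and 4 lower, among them Ttc19 with -1.29 ± 0.21 and Uqcc2 with -1.05 ± 0.16.

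Within the thymus, mTEC had lower levels than cTEC of 14 of the 92 genes and a higher level of 1, where 9.45% of all genes tested were lower and 15.2% higher. The median log2 fold change was -0.28, against 0.07 over all genes tested. The 14 were 7 of complex I, 2 of its assembly factors, 2 of complex III, 1 of complex IV and 2 of complex V. The count rested on single libraries: it was 2 without mTEC replicate 1, 5 without cTEC replicate 2, and 7 without cTEC replicate 3 or without mTEC replicate 2. Of the ribosomal protein genes 1 was lower and 1 higher. Markers of other cells differed as well: the 8 thymocyte markers summed to 89.5 to 120.4 CPM in cTEC and 31.4 to 53.4 in mTEC, with 3 of 8 lower in mTEC, and the pericyte and smooth muscle markers, given above, had 4 of 9 higher in mTEC. The 4 brown adipocyte markers, all higher in mTEC, summed to 18.9 to 38.3 CPM in cTEC and 68.6 to 188 in mTEC. Their part in these differences was not tested.

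Of the 14 lower genes, Ndufa11 had the largest change. It stood at 177, 243 and 222 CPM in cTEC, 75.5, 86.6 and 104 in mTEC, 71.4, 94.5 and 52.4 in skin, 51.7, 36.8 and 51.3 in colon and 30.2, 30.3 and 34.3 in lung. The cTEC libraries lay above all 12 others, and mTEC was 2.41-fold lower (log2 fold change -1.27 ± 0.21, adjusted p = 0.000879), a call that no left-out library ended. Ndufaf8, an assembly factor of complex I, was the other gene with all cTEC libraries above the rest. It had a log2 fold change of -0.81 ± 0.23 (adjusted p = 0.0211), a call that leaving out cTEC replicate 2 or mTEC replicate 1 or 2 ended. Ndufb10, an accessory subunit of complex I, was lower with -0.77 ± 0.14 (adjusted p = 0.00185). Ndufs7, a core iron-sulfur subunit, was lower with -0.72 ± 0.19 (adjusted p = 0.0152), and did not pass without cTEC replicate 2 or mTEC replicate 1.

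The single higher gene in mTEC was Cox6a2, at 0.402, 0.391 and 0.651 CPM against 0.0476, 0.167 and 0 in cTEC, from 30 and 4 reads. Its log2 fold change was 2.68 ± 0.82 (adjusted p = 0.0277), and it did not pass without cTEC replicate 1 or 3 or without mTEC replicate 1 or 3. Of the 8 striated muscle markers, which summed to 20.6 to 26.3 CPM in cTEC and 19.7 to 32.1 in mTEC, 3 were higher in mTEC, including Ckm at 4.11 and the heart myosin Myh6 at 4.95 on the log2 scale, and 1 was lower. Their part in the Cox6a2 difference was not tested. Around the chain, Esrra with -0.64 ± 0.20 and Ppargc1a with -1.10 ± 0.35 were the 2 lower of 14 biogenesis regulators and Gabpb1 with 0.70 ± 0.23 the higher one. Over all genes tested 9.45% were lower in mTEC and 15.2% higher, the shares to set beside this and the next counts. Suclg2, with -0.52 ± 0.18, was the only one of 13 TCA cycle genes to pass. Ldhb with -0.73 ± 0.15 and Aldoa with -0.73 ± 0.17 were lower among 15 glycolytic genes. Bcs1l with -0.78 ± 0.23 and Surf1 with -0.51 ± 0.16 were lower and Sdhaf1 with 0.70 ± 0.20 higher among 22 assembly factors of complexes II to IV. Cycs stood at 0.36, below the threshold.

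Promoters were read because the transcription factor NRF-1 is known to bind many genes of this set. The RefSeq table on GRCm38.p6 held 74 of the 94 genes, with 250 bases before and 50 after each start. The NRF-1 core, GCGCA followed directly by TGCGC, which reads the same on both strands and was searched for as 10 letters, was found in 7 of these 74 genes, or 9.46%, and in 1.07% of all 27025 genes of the table. The 7 were Atp5g2, Atp5k, Cox6a1, Ndufa11, Ndufaf4, Ndufaf5 and Uqcrc1. All 7 were higher in colon than in lung, as were 71 of all 92 genes tested in the set. Against thymic epithelium 4 were higher and 2 lower in colon, where 64 and 8 of the 92 were. In lung 1 was higher and 4 were lower, where 15 and 31 of the 92 were. Whether genes with the motif differ from the rest of the set was not tested. The 170 bases before the start are shown for 4 of them, chosen because their levels differ in different directions, and for Cox7a1 and Cox7a2, the isoform pair of colon. Capitals mark the motif, which begins 60 bases before the start in Ndufa11 (chr17:56717592-56717761, plus strand), 42 in Atp5g2 (chr15:102671048-102671217, minus strand), 162 in Cox6a1 (chr5:115348959-115349128, minus strand) and 113 in Ndufaf4 (chr4:24897913-24898082, plus strand). The stretches of Cox7a1 (chr7:30184001-30184170, plus strand) and Cox7a2 (chr9:79759854-79760023, minus strand) did not hold these letters. Starts are those of the RefSeq table and can differ from the gene bounds of GENCODE M21. By those bounds the Atp5g2 stretch lies inside its gene, which runs from 102662864 to 102672352. The stretches of Cox6a1, Cox7a1 and Cox7a2 reach into theirs. A match is a description of the letters and not a measured site.
Ndufa11: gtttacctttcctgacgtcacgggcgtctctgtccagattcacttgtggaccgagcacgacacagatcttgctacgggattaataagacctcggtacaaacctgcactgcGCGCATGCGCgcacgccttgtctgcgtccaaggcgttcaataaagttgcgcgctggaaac
Atp5g2: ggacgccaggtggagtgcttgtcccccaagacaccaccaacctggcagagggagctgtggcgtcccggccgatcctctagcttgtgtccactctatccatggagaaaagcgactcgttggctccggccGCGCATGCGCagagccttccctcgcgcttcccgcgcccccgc
Cox6a1: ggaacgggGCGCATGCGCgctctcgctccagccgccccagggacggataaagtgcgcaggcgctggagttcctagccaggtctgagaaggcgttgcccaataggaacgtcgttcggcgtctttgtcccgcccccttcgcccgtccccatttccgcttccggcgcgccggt
Ndufaf4: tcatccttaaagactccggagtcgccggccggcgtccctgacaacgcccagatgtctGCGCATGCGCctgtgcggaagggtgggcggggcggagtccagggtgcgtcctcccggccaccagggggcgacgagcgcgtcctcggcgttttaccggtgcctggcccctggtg
Cox7a1: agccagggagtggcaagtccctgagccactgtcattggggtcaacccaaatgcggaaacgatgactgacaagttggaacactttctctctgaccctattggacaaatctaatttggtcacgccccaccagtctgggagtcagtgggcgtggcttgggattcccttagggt
Cox7a2: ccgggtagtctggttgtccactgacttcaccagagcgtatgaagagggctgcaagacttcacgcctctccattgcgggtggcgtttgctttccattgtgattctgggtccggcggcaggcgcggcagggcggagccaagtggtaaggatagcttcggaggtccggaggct

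Colon and lung were also set beside thymic epithelium, a comparison in which kit and tissue cannot be told apart. Both share the same thymic libraries, so their values are given side by side. In colon 64 of the 92 genes were higher and 8 lower, where 31.8% of all genes tested were higher and 37.6% lower, and the median log2 fold change was 0.75 against -0.17 over all genes tested. In lung 15 were higher and 31 lower, where 30.8% of all genes were higher and 34.7% lower, with a median of -0.18 against -0.13. Genes with transcripts under 1000 bases had a median of -0.52 in colon and -0.68 in lung over all genes tested, and longer genes one of -0.11 and -0.05. Of the 92 genes 68 were under 1000 bases, with medians of 0.61 in colon and -0.28 in lung, and the other 24 had medians of 1.28 and 0.02.

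With a floor of 10 CPM in the higher group, the largest rises in colon were those of Cox7a1, with 5.91 ± 0.42 on the log2 scale, Sdhd with 1.96 ± 0.11, Cox5a with 1.72 ± 0.13 and Uqcrfs1, the Rieske iron-sulfur protein of complex III, with 1.68 ± 0.12. In lung they were those of Ndufc2, a subunit of complex I, with 1.2 ± 0.18, Atp5s with 1.19 ± 0.29, Cox6a1 with 0.56 ± 0.15 and Ndufaf1 with 0.52 ± 0.15. Ndufaf3 was lower in colon by -1.04 ± 0.16 and not past the threshold in lung, at -0.02 ± 0.15. Ndufa11 was lower in both, by -1.56 ± 0.19 in colon and -2.13 ± 0.20 in lung.

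Atp5g1, Atp5g2 and Atp5g3 encode the same mature c subunit, which forms the rotor ring of ATP synthase. Atp5g2 was lower in both HyperPrep groups than in thymic epithelium. It stood at 296, 326 and 343 TPM in cTEC, 253, 241 and 352 in mTEC and 219, 344 and 335 in skin, against 8.14, 5.89 and 10.4 in colon and 4.28, 4.06 and 4.05 in lung. The 9 libraries of the Stranded kit and the 6 of the HyperPrep kit were separated with no overlap. Against thymic epithelium the log2 fold change was -4.01 ± 0.31 in colon (adjusted p = 4.33e-08) and -5.41 ± 0.35 in lung (adjusted p = 5.79e-09).

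Atp5g3 rose in colon by 1.24 ± 0.12 against thymic epithelium, at 641 ± 92.6 TPM, and in lung, at 287 ± 11.7 TPM, its log2 fold change of -0.17 ± 0.12 did not pass. It made up 67.2% ± 1.05 of the TPM of the 3 genes in colon and 76.1% ± 1.06 in lung, but 33.7% to 44.7% by group mean in skin, cTEC and mTEC. By group mean, Atp5g1 stood at 387 TPM in skin, 305 in colon, 271 in cTEC, 196 in mTEC and 85.9 in lung. The 3 genes summed to 953 ± 131 TPM in colon, 1001 ± 90.4 in cTEC, and 377 ± 10.4 in lung. All 6 HyperPrep libraries lay below the other 9 by CPM for 4 of the 92 genes, Atp5g1, Atp5g2, Cox7c and Ndufa11, a pattern found in 5.97% of all genes tested. They lay above the other 9 by CPM for 10 of the 92, against 9.08% of all genes tested. By TPM they lay below for 4, of which Atp5g2 and Ndufa11 were the 2 shared with CPM, and above for 3, Atp5s, Cox6c and Cox7a1, all shared with CPM.

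**Figure D4:**
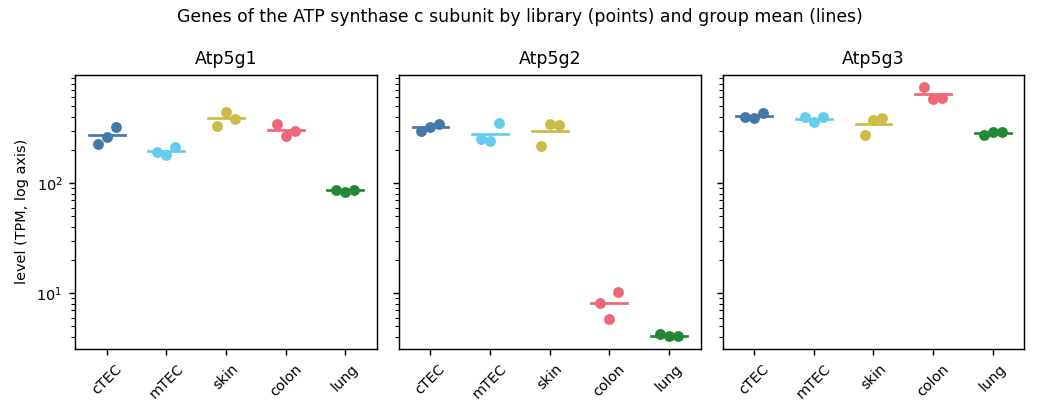
Level in TPM (log axis) of the 3 genes of the ATP synthase c subunit in each library (points) with group means (lines). Atp5g2 lies between 219 and 352 TPM in cTEC, mTEC and skin and between 4.05 and 10.4 in colon and lung, while Atp5g3 stays at 273 or more in every library.

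Reads shared between sites limit some of these values, and which other sites they match was not examined. The counts hold reads placed at a single site, and for 14 of the 94 genes they came to less than 70% of the estimate that also divides shared reads. Of the 94 genes 10 overlap another gene on the same strand, among them Cox7c, Atp5g2, Ndufb2 and Ndufb8. The part of such overlaps in these shares was not tested. For Cox7c, a small subunit of complex IV, the counted share was 50.1%, 51.3% and 47.2% in cTEC, mTEC and skin but 7.37% in colon and 11.9% in lung. Its colon minus thymic value of -2.34 ± 0.16 by counts became 0.43 with the estimated counts, a change of direction, and that of lung went from -3.18 ± 0.16 to -1.07. For Atp5g1 the counted share was 54.3% to 57.3% in the Stranded groups and 18.1% and 22.1% in colon and lung, and its lung minus thymic value went from -2.49 ± 0.19 to -1.13. Atp5g2 kept its direction with the estimated counts, at -4.69 in colon and -5.88 in lung, although its counted share was only 16.5% to 27.2% by group. Ndufa11 stayed at -1.53 and -2.08. Without the 14 genes, colon minus lung had 60 higher and 4 lower of 78.

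The mitochondrially encoded genes were set beside the nuclear ones. Of the 13 protein genes of mitochondrial DNA, 7 had counted reads: mt-Nd1, mt-Nd2, mt-Nd4, mt-Nd5 and mt-Nd6 of complex I, mt-Cytb of complex III and mt-Co1 of complex IV. The other 6 had 0 to 6 reads placed at a single site over all libraries. The 7 genes summed to 73978 ± 9500 TPM in colon and 68188 ± 16880.3 in lung, against 18707 ± 3204 in cTEC, 16857 ± 3558 in mTEC and 10110 ± 4330 in skin. With the other 6 genes, for which the authors' tables give TPM despite so few single-site reads, the sums were 113059 ± 18054 TPM in colon and 88832 ± 21425 in lung, against 23673 ± 3719 in cTEC, 20294 ± 4076 in mTEC and 13280 ± 6589 in skin. All 6 HyperPrep libraries lay above the 9 others in both sums, and all 7 genes were called higher than in thymic epithelium in both colon and lung. mt-Co1, the catalytic subunit of complex IV, was higher by 3.26 ± 0.30 on the log2 scale in colon and 2.29 ± 0.30 in lung.

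Between colon and lung, where the nuclear genes had a median log2 fold change of 1.01, the mitochondrial ones went both ways: mt-Co1 was higher in colon by 0.97 ± 0.36 (adjusted p = 0.0309), mt-Nd2 was lower by -0.73 ± 0.29 (adjusted p = 0.0435), and 5 did not pass. None of the 7 passed in thymic minus skin, where their log2 fold changes ran from -0.21 to 0.68, or in mTEC minus cTEC, where they ran from -0.48 to -0.03. The TPM of the 7 genes over that of the 94 nuclear genes was 5.00 ± 1.36 in lung, 3.0 ± 0.525 in colon, 0.955 ± 0.272 in mTEC, 0.909 ± 0.217 in cTEC and 0.551 ± 0.192 in skin. The ratio separated the libraries by kit, with no HyperPrep library under 2.46 and no other above 1.16, so that a difference between tissues and one between kits cannot be told apart here.

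**Figure D5:**
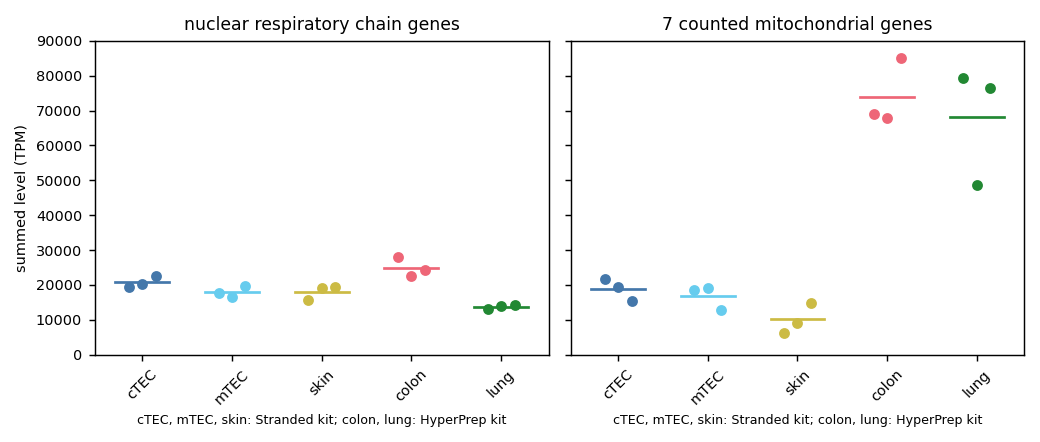
Summed level in TPM (shared axis from 0) of the 94 nuclear genes (left) and of the 7 counted mitochondrial genes (right) in each library (points) with group means (lines). The nuclear sums run from 12973 to 28107 TPM with lung lowest, while the mitochondrial sums run from 6300.2 to 21583 TPM in the Stranded kit groups and from 48766 to 84926 in the HyperPrep groups.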

How the data were processed

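RNA was measured in 15 libraries, 3 in each of 5 groups, taken from the labels. Per the submitters' processing notes, bcl2fastq 2.20, STAR 2.5.1b and RSEM 1.2.28 were used with GRCm38. Which annotation release they used was not given in the sources used here. Counts in the deposited tables are of reads placed at a single site, per gene, as an unstranded column and one for each strand, and the sense column was used. The deposited RSEM tables hold expected counts, which divide shared reads between genes, with TPM and FPKM made by the authors from them. Expected counts were rounded where tested. The scale of TPM and FPKM depends on transcript length and on the abundant genes of a library. Symbols came from GENCODE M21 and matched 50376 of 50600 IDs.

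Counts were scaled by TMM, filtered on low counts and fitted over all 15 libraries with edgeR 4.0.16 (quasi-likelihood F-test, limma 3.58.1, R 4.3.3). Benjamini-Hochberg adjustment ran over the 19107 genes tested, with a threshold of 0.05, and the biological coefficient of variation was 28.1%. Thymic epithelium is the mean of cTEC and mTEC on the log2 scale, so the comparisons of skin, colon and lung with it share those libraries. Rows that name no gene were left out. They held 24.2% to 46.9% of reads, namely all that were not assigned to a single gene. Replicates differed beyond sampling noise, with a chi-square per degree of freedom of 22.7 to 213.

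The genes and lists were chosen with earlier results of these data known. The text names every restricted isoform and partner, up to 4 genes in each direction with the largest passing change and 10 CPM or more in the higher group, the gene of highest mean TPM in each complex, and up to 2 genes per direction of the other lists in the comparisons within a kit. Sdha, Cox6a1 in the skin comparison, Ndufv2, Cox7c, the c subunit genes and the genes of the promoter paragraph were otherwise chosen after their values were seen. Alternatives changed the scaling, filter, counts, tool, fold threshold, libraries and block. The values of 1 gene of complex I are not reported here, and it is included in the counts and sums.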

Additional observations from a re-analysis of the deposited data

How the results depend on the processing

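Of the counts, medians and sums, 580 values under alternatives stayed near those reported and 34 moved. Among values of named genes, 2803 kept direction and side of the threshold, 100 lost their call, 28 gained one and 1 changed sign, Cox7c in colon minus thymic, at 0.43 with RSEM expected counts. Upper quartile scaling moved the median of all genes from -0.17 to -0.38 in colon minus thymic and from -0.13 to -0.34 in lung minus thymic. The medians of the nuclear genes became 0.54 and -0.39. Relative to all genes they were at 0.92 and -0.05 with either scaling. With upper quartile scaling lung minus thymic had 7 higher and 48 lower. Lung minus thymic had 9 higher with DESeq2 size factors and 8 without a filter. Without a filter, thymic minus skin had 22 lower and mTEC minus cTEC 6 lower. A required change of over 1.5 fold left 2 higher and 6 lower in thymic minus skin, 0 and 1 in mTEC minus cTEC, 42 and 5 in colon minus thymic and 6 and 9 in lung minus thymic. Fitting only the groups compared gave 4 higher in thymic minus skin and 0 higher in mTEC minus cTEC. Leaving out each library in turn gave 0 to 1 higher and 2 to 18 lower in mTEC minus cTEC, 4 to 11 higher in thymic minus skin, and 18 to 33 lower in lung minus thymic, the lowest without lung replicate 2. By sense reads per kilobase, the summed level was 33453 in colon, 23413 in cTEC, 20929 in skin, 20594 in mTEC and 15432 in lung, and that of the 7 mitochondrial genes was 83676 in colon. For all these moves the cause was not tested. The 1.5-fold threshold was not run for the test among 5 groups, whose groups compared are all groups.

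With the replicate number as a block, thymic minus skin had 7 higher and 37 lower, mTEC minus cTEC 1 and 12, colon minus lung 71 and 5, colon minus thymic 64 and 7, lung minus thymic 13 and 31, and 87 genes differed among the 5 groups. Over 30 same-numbered pairs from different groups the correlation of deviations ran from -0.064 to 0.29, with 4 over 0.1 and a median of 0.0037. The median of pairs with other numbers was 0.0010. Pairs of cTEC with mTEC were not looked at apart, so whether any groups share mice was not settled.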
